A study of Mus musculus with 4 samples.

Results

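The 9 genes described here encode nuclear receptors that pair with retinoid X receptors (RXRs), and their open chromatin was examined in large peritoneal macrophages (LPMs). They are the liver X receptor (LXR) genes Nr1h2 and Nr1h3, the peroxisome proliferator-activated receptor (PPAR) genes Ppara, Ppard and Pparg, the vitamin D receptor gene Vdr, the thyroid hormone receptor beta gene Thrb, and the orphan receptor genes Nr4a1 and Nr4a2. Peaks that shared at least 1 bp across the 4 peak lists were merged into regions, and a region belonged to a member when its midpoint lay nearest to the transcription start site (TSS) of that gene or when it overlapped the gene body. This gave 77 member regions of 70744 in all, and no region belonged to more than 1 member.

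The assay was ATAC-seq, which reads out accessible DNA through insertions of the Tn5 transposase, on LPMs that had been sorted from C57BL/6 mice aged 9 weeks, with 40000 cells per library. Both groups carry floxed alleles of Rxra and Rxrb. The Rxrab fl/fl mice have no Cre and served as controls (replicates 1 and 3), and the LysMCre+ Rxrab fl/fl mice express Cre from the LysM locus, which is active across myeloid cells and not in LPMs alone (replicates 1 and 2). All libraries carry library batch 1, and nothing in the labels says how many animals each library holds, so every p value below measures the spread between libraries of a genotype, which may be technical. The study states that ATAC-seq samples which did not cluster with their group were left out, so that spread may be too small. Some limma fits with 1 library left out gave every named region the same SE. Their p values do not measure the spread of a single region.

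RXRs bind DNA mostly as heterodimers. LXRs, which sense oxysterols, and PPARs, which sense fatty acids, form pairs that respond to the ligand of either partner, whereas in pairs with the vitamin D and thyroid hormone receptors the ligand of the partner dominates. The NR4A receptors have no known conventional ligand, are encoded by rapidly induced genes, and bind DNA alone or with RXR. In macrophages, LXRs drive cholesterol efflux genes and PPARs drive fatty acid uptake and oxidation.

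The 6 sequences below are shown because the results turn on them: the distal Vdr and Thrb regions of higher enrichment in the LysMCre+ libraries, the Nr1h2, Pparg and Nr4a2 regions with log2 fold changes below 0, and the strongest Pparg region. Each is read from the mm10 (GRCm38) genome on the plus strand, 100 bp either side of the strongest summit, except that the Nr1h2 window is cut to its 115 bases upstream of the TSS. Capitals mark matches, on either strand, to the patterns searched: the nuclear receptor hexamers AGGTCA or AGTTCA or GGGTCA or GGTTCA, the PU.1 pattern GAGGAAG, the C/EBP pattern TTGCNNAA and the AP-1 pattern TGANTCA. The GATA pattern (AGATAA or TGATAA) and the NR4A element AAAGGTCA, which contains a hexamer, were also searched and are in none of the 6.
Vdr, intergenic, at −19.7 kb from the TSS, chr15:97927937-97928137: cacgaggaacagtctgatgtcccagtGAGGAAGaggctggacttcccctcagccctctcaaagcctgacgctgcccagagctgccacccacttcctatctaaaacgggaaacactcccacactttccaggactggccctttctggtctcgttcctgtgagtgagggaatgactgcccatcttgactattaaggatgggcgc
Thrb, intron of the long transcript, at −27.4 kb from the downstream TSS, chr14:17954144-17954344: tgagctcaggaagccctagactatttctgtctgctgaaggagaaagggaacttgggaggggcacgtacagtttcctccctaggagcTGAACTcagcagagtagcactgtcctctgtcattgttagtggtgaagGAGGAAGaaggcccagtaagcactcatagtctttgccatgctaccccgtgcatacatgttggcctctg
Nr1h2, promoter, chr7:44553966-44554080: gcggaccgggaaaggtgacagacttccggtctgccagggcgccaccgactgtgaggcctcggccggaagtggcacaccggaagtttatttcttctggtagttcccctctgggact
Pparg, promoter of the downstream TSS, chr6:115421724-115421924: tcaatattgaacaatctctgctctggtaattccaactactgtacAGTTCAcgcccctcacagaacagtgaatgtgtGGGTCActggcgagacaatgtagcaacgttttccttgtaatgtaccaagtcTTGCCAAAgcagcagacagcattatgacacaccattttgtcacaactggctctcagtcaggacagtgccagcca
Nr4a2, intron, at −1.74 kb from the downstream TSS, chr2:57116679-57116879: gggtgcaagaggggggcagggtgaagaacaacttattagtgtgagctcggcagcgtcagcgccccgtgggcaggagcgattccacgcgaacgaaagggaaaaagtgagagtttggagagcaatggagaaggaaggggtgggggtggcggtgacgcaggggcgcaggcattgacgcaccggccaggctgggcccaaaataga
Pparg, coding exon at 41.0 kb from the downstream TSS, chr6:115463019-115463219: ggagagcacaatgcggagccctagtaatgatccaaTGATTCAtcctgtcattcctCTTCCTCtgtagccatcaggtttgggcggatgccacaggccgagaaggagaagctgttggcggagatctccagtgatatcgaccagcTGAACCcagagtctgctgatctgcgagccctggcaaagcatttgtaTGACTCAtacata
The Vdr and Thrb windows and that of the strongest Pparg region each hold the PU.1 pattern, a motif of a lineage factor of macrophages. It is in the summit window of 21.8% of all regions. The Thrb window and that of the strongest Pparg region also hold a hexamer, and the latter holds AP-1 matches. The Nr1h2 and Nr4a2 windows hold no match to any of these patterns, and the downstream Pparg promoter holds a pair of hexamers and a C/EBP match.

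The peak lists hold 16097 to 65421 peaks, fewest in control replicate 3, and their lowest background, which stands for sequencing depth, was 1.97, 1.06, 1.33 and 1.08 tags per 200 bp in control replicates 1 and 3 and LysMCre+ replicates 1 and 2. Over the 15199 regions called in all 4 libraries, the median fold enrichment, which is the pileup at the summit over the local background, was 14.5, 7.52, 15.1 and 12.02 in the same order. Control replicate 3 thus had peaks of lower enrichment at a depth close to that of LysMCre+ replicate 2. The LPM markers were checked at their promoters, and 4, 4, 5 and 5 of the 6 marker genes (Gata6, Adgre1, Icam2, Timd4, Csf1r and Itgam) had a peak called in the same order. Of 5 markers of small peritoneal or monocyte-derived macrophages, 1, 1, 4 and 3 had one, with Mrc1 and Retnla called in both LysMCre+ libraries and in neither control, and Ccr2 in none. Of 5 B cell and 3 mesothelial markers none was called in any library, of 4 T or NK cell markers only Cd2 was called (not in control replicate 3), and of 4 neutrophil or mast cell markers only S100a8 (not in control replicate 3). A peak in bulk cells does not tell a region that opened further from a region open in a larger share of the cells, and the part that a change in cell makeup plays in the results below was not tested. The TSS of each targeted gene was called in every library, with fold enrichments of 6.43, 5.77, 10.4 and 7.27 at Rxra and 8.36, 5.71, 7.17 and 4.79 at Rxrb, and the peak lists do not test the deletion itself.

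The members differed widely in how many regions they held. Pparg had 20, Thrb 17, Ppard 13, Nr4a1 8, Vdr 7, Nr4a2 6, Nr1h3 3, Nr1h2 2 and Ppara 1. Of the 77 regions, 37 lay in introns, 24 between genes, 11 in promoter-TSS (the stretch that begins 1 kb before a TSS and ends 200 bp after it), 3 in coding exons and 1 each in a 5′ and a 3′ UTR. Promoter-TSS regions made up 14.3% of the member regions and 18.1% of all regions. Each member had a region called at 1 or more of its own TSSs in at least 3 libraries.

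**Figure D1:**
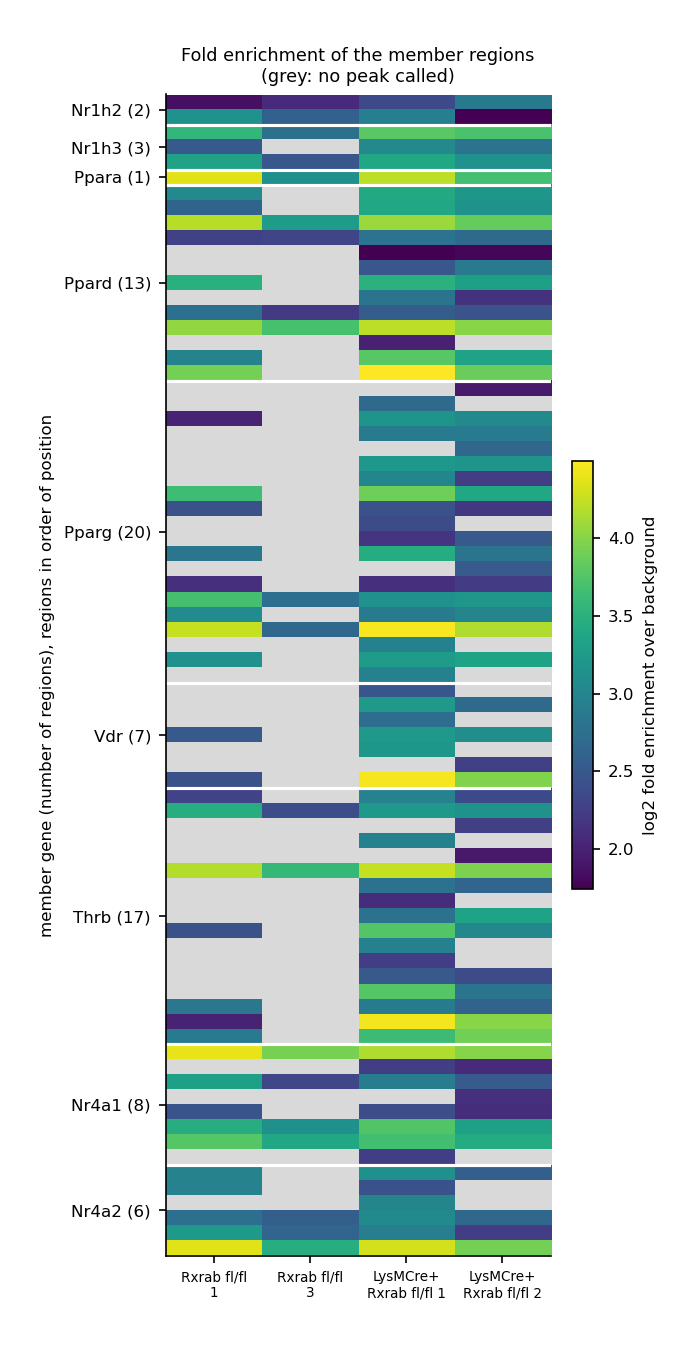
Fold enrichment (log2, colour) of the 77 member regions, one row each, in the 4 libraries, ordered by gene and then by genome position, with grey where no peak was called. Grey is most frequent in control replicate 3, where 57 regions had no peak, and least frequent in LysMCre+ replicate 1, where 7 had none.

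Member regions were called more often in the LysMCre+ libraries, as regions were everywhere. Control replicates 1 and 3 called 43 and 20 of the 77, and LysMCre+ replicates 1 and 2 called 70 and 62. The mean was 66 against 31.5 (n = 2 and 2), with an exact two-sided permutation p of 0.333, which is the smallest that 2 against 2 libraries allow. The shares of member regions called, 55.8%, 26.0%, 90.9% and 80.5%, stood close to those of all regions, 52.0%, 21.9%, 90.7% and 77.2%. The libraries ranked in the same order by their number of peaks and by their number of member calls.

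In all, 13 member regions (16.9%) were called in both LysMCre+ libraries and in neither control, a lower share than the 22.8% of all regions. They were 4 regions of Pparg, 4 of Thrb, 3 of Ppard, 1 of Vdr and 1 of Nr4a1, all of them away from promoter-TSS. Few regions of this kind lie there: of regions called in 2 libraries, promoter-TSS held 7.47% of all and 0 of 14 members. No member region was called in both controls and in neither LysMCre+ library, a class that held 32 regions in all (0.0452%). A further 22 member regions (28.6%) were called in every library but control replicate 3, against 25.5% of all regions. The share of regions called in control replicate 3 followed the strength of the region in control replicate 1. Among regions called in the other 3 libraries, it was 1.53% where control replicate 1 had a summit pileup under 20 tags, 43.8% from 40 to 60 tags and 98.5% from 100 tags, and for members it was 0 of 6, 6 of 9 and 9 of 9.

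With the same number of peaks taken from each library, those of lowest q value, the members were called almost equally often. Control replicates 1 and 3 then called 20 and 20 of 30 member regions, and LysMCre+ replicates 1 and 2 called 20 and 23. Of the 30, 5 (16.7%) were called in both LysMCre+ libraries alone, against 7.82% of all regions at that setting. These were the Vdr region at −19.7 kb, the Thrb region at −27.4 kb and 3 regions assigned to Ppard, of which 2 lie upstream in coding exons of its neighbour Def6 and 1 in a Ppard intron. Another 5 (16.7%) were called in both controls alone, against 7.22% of all regions. These were the Nr1h2 promoter, the downstream Pparg promoter, a region far upstream of Thrb at −246 kb, the Nr4a1 region at −12.7 kb and the Nr4a2 region at −1.74 kb. With 30 regions, each of these counts is a description of which loci sit on either side.

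The regions called in all 4 libraries were compared on log2 fold enrichment centred on the median of each library, with limma across all 15199 regions. To pass, a region needed a log2 fold change past 1 in either direction and a p, adjusted by the method of Benjamini and Hochberg, under 0.05. Of the 20 member regions tested, 0 passed (0 higher, 0 lower), where 0.0395% of all regions passed as higher in LysMCre+ Rxrab fl/fl and 0.0461% as lower. At an unadjusted p under 0.05 there were 3 members, where 22.0% of all regions lay under it. The median log2 fold change of the 20 was −0.15, beside −0.09 over all regions tested, with 4 above 0 and 16 below. On the scaled values, 2 of 20 (10%) had both LysMCre+ libraries above both controls and 9 of 20 (45%) had both below, where 22.3% and 32.9% of all regions did. Before scaling, 3 of 20 (15%) had both LysMCre+ libraries above and 0 had both below, where 20.65% and 3.57% of all regions did.

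The same test was run on the summit pileup, the number of 200 bp tags over the summit, scaled to the library median. It called 2.49% of all regions higher and 4.98% lower, and of the 20 member regions 0 higher and 2 lower, the Nr1h2 promoter and the downstream Pparg promoter. Fold enrichment divides this pileup by the local background, so the scales weigh the background differently, and the pileup calls are given beside each member.

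Because control replicate 3 lacked a value at 22 member regions that every other library called, the fit was also made without it, on 33263 regions. The lone control is then assumed to vary like the LysMCre+ pair. Of all regions, 2.21% passed as higher and 1.21% as lower, and of 42 member regions 2 passed as higher, the distal Vdr and Thrb regions, and 0 as lower.

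**Figure D2:**
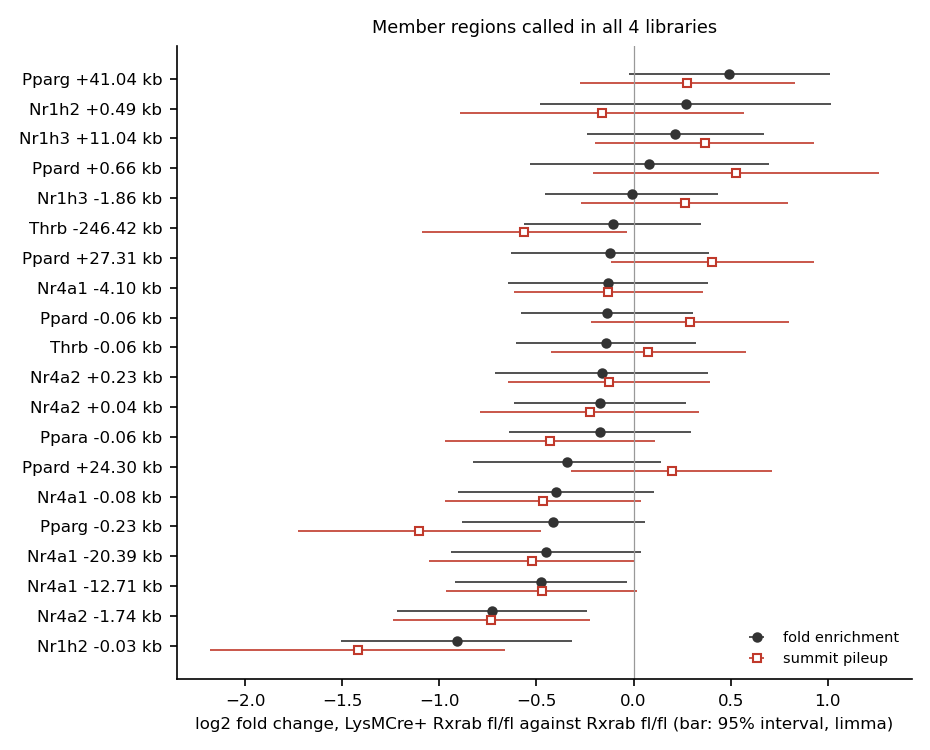
Log2 fold change of LysMCre+ Rxrab fl/fl against Rxrab fl/fl for the 20 member regions called in all 4 libraries, each named by its gene and its distance from the nearest TSS of that gene, on fold enrichment (filled circles) and on the summit pileup (open squares), with 95% intervals from limma. The Nr1h2 promoter lies lowest on both scales, at −0.91 and −1.42, and the Pparg region at 41.0 kb lies highest on fold enrichment, at 0.49.

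The LXR genes had few regions, and their clearest difference lay at the promoter of Nr1h2. Nr1h2 encodes LXR beta, and its gene (chr7:44549616-44553965, minus strand) had 2 regions, both called in every library. The promoter region (chr7:44553827-44554167) had fold enrichments of 8.94 and 6.07 in control replicates 1 and 3 and of 7.63 and 3.35 in LysMCre+ replicates 1 and 2. LysMCre+ replicate 2 was lowest, and LysMCre+ replicate 1 lay between the controls until the values were divided by the library medians, after which both LysMCre+ libraries (0.504 and 0.279) lay below both controls (0.616 and 0.807). The log2 fold change was −0.91 (SE 0.275, 95% interval −1.50 to −0.32), with an adjusted p of 0.097 from limma. On the summit pileup, with 60 and 16 tags in the controls and 37 and 12 in the LysMCre+ libraries, it was −1.42 (SE 0.335, adjusted p = 0.0331 from limma). The difference rests in large part on LysMCre+ replicate 2, without which it was −0.48 on fold enrichment. It was −1.11 without control replicate 1, where the lone control is replicate 3, the library of lowest enrichment. Each of these fits leaves 1 library in a genotype, so only the size of the difference is given.

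An intronic region 0.487 kb downstream of the Nr1h2 TSS leaned the other way. Its fold enrichments were 3.62 and 4.23 in the controls and 5.11 and 7.23 in the LysMCre+ libraries, which did not overlap before scaling. The log2 fold change was 0.27 (SE 0.347, adjusted p = 0.673 from limma), while the pileup gave −0.16. So the pair of neighbouring Nr1h2 regions gave no shared direction on fold enrichment, and the downstream one had no stable sign.

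Nr1h3 encodes LXR alpha, which is found mainly in liver, fat, gut and macrophages, whereas LXR beta is present in most cells. Its TSS region (chr2:91194609-91195287) had fold enrichments of 5.73 in control replicate 1, 8.21 and 6.92 in the LysMCre+ libraries, and no peak in control replicate 3. Without that library the log2 fold change was 0.17 (SE 0.244, adjusted p = 0.672 from limma). A region at −1.86 kb was called in every library, at 10.0, 5.60, 10.5 and 8.78, with a log2 fold change of −0.0090 (adjusted p = 0.985 from limma). The strongest region assigned to Nr1h3 lay at the end of the gene, 11.0 kb from its TSS and in promoter-TSS of the neighbour Madd. It had 11.9 and 6.77 in the controls and 13.9 and 13.0 in the LysMCre+ libraries (log2 fold change 0.22, adjusted p = 0.565 from limma), so both LysMCre+ libraries were above both controls without passing the test.

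**Figure D3:**
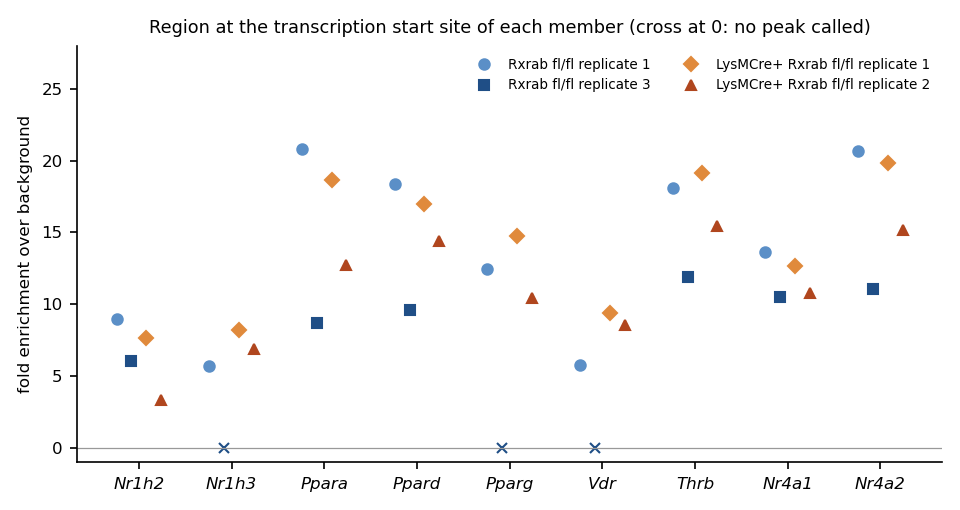
Fold enrichment at the TSS region of each member in the 4 libraries (points by library, crosses at 0 where no peak was called). Ppara, Nr4a2, Thrb and Ppard had the most enriched TSS regions and Nr1h3, Vdr and Nr1h2 the least, and control replicate 3 had no peak at Nr1h3, Pparg and Vdr.

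By mean log2 fold enrichment over the libraries with a peak, the TSS regions ranked Nr4a2, Thrb, Ppard, Ppara, Pparg, Nr4a1, Vdr, Nr1h3 and Nr1h2. The ranges of neighbours in this order overlapped, except that Nr4a1, from 10.5 to 13.6, lay above Vdr, from 5.75 to 9.42. The means of Pparg, Vdr and Nr1h3 leave out control replicate 3, the library of lowest enrichment, which favours these 3 genes in the order.

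The PPAR genes split into one with a single region and a pair with many. Ppara, the PPAR best known for fatty acid oxidation in liver, had only its TSS region (chr15:85735032-85735967). The fold enrichments were 20.8 and 8.70 in control replicates 1 and 3 and 18.6 and 12.7 in the LysMCre+ libraries, so the genotypes overlapped. The log2 fold change was −0.17 (SE 0.217, adjusted p = 0.665 from limma). No other region within its 71.3 kb or nearest to its TSS was called in any library.

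Ppard, the broadly expressed PPAR, had 13 regions, 10 of them in its introns. The TSS region (chr17:28232401-28232983) had 18.4 and 9.62 in the controls and 17.0 and 14.4 in the LysMCre+ libraries, with a log2 fold change of −0.14 (adjusted p = 0.723 from limma) and of 0.29 on the pileup. An intronic region at 61.6 kb had the largest mean enrichment, a mean that leaves out control replicate 3. It had 15.2 in control replicate 1 and 22.6 and 14.6 in the LysMCre+ libraries, and no peak in control replicate 3. Its log2 fold change without that library was 0.03 (SE 0.253, adjusted p = 0.945 from limma). Another intronic region at 27.3 kb had the highest pileup of any member region in both LysMCre+ libraries, 525 and 271 tags against 349 and 70 in the controls, and fold enrichments of 16.5, 12.9, 18.6 and 16.1 that overlapped. Across Ppard, 4 regions were called in all libraries, 5 in all but control replicate 3, and 3 in the LysMCre+ pair alone. None of the 4 passed the test with all libraries. Those of the LysMCre+ pair alone have no control value to test.

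Pparg, which drives fat cell differentiation and the lipid handling of alveolar macrophages, had the most regions, spread from −53.3 kb of its upstream TSSs to 63.8 kb past its downstream TSS. Control replicate 3 called 2 of the 20, control replicate 1 called 9, and the LysMCre+ libraries called 17 and 16. The upstream TSS region (chr6:115360813-115362071) had 12.4 in control replicate 1 and 14.8 and 10.4 in the LysMCre+ libraries, with no peak in control replicate 3. The genotypes overlapped there, and the log2 fold change without control replicate 3 was −0.23 (SE 0.246, adjusted p = 0.556 from limma).

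The downstream Pparg TSS lies inside the longer transcripts and gave the only other pileup call among the 20 regions. Its promoter region (chr6:115421654-115422013), whose sequence is given above, had fold enrichments of 12.9 and 6.70 in the controls and 8.80 and 9.18 in the LysMCre+ libraries. Divided by the library medians these became 0.886 and 0.890 against 0.582 and 0.764, so both LysMCre+ libraries lay below both controls. In limma on fold enrichment the log2 fold change was −0.41 (SE 0.219, adjusted p = 0.283 from limma). On the pileup, with 62 and 14 tags against 24 and 26, the region passed the test at −1.10 (SE 0.276, adjusted p = 0.0380 from limma).

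The strongest Pparg region overlapped a coding exon at 41.0 kb from that TSS (chr6:115462854-115463353). The fold enrichments were 19.1 and 6.31 in the controls and 22.1 and 18.0 in the LysMCre+ libraries, so control replicate 3 stood apart from the other 3. The log2 fold change of 0.49 (SE 0.241, adjusted p = 0.250 from limma) turned to −0.17 without control replicate 3. Upstream of the gene, 7 intergenic regions from −53.3 to −17.15 kb held 1 call in a control. Of these, 3 were called in both LysMCre+ libraries and in neither control, 3 in 1 LysMCre+ library, and 1, at −39.3 kb, also in control replicate 1, at 4.04 against 8.99 and 8.28. Over all regions, 22.8% were called in the LysMCre+ pair alone, 18.3% in LysMCre+ replicate 1 alone and 6.68% in LysMCre+ replicate 2 alone. The 7 regions were weak, with pileups from 7 to 25 tags.

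Vdr encodes the receptor for the active form of vitamin D, and it had no region called in control replicate 3. Its TSS region (chr15:97907743-97908498) had 5.75 in control replicate 1 and 9.42 and 8.57 in the LysMCre+ libraries. Both LysMCre+ libraries were above the control that had a peak. The log2 fold change without control replicate 3 was 0.42 (SE 0.249 from limma) and did not pass. The pileups were 41 and 35 tags against 19 and gave 0.865 without control replicate 3. Over regions called in at least 1 library of each genotype, the pileup gave 1.27. That value too rests on control replicate 1 alone, in a fit chosen after seeing the data.

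The region of Vdr at −19.7 kb (chr15:97927855-97928231) was its strongest and, in the fit without control replicate 3, rose in LysMCre+ Rxrab fl/fl. The fold enrichments were 22.0 and 15.7 in LysMCre+ replicates 1 and 2 and 5.39 in control replicate 1, with no peak in control replicate 3. The pileups were 82 and 43 tags against 15, and the summits of the 3 libraries lay within 42 bp. LysMCre+ Rxrab fl/fl exceeded that control by a log2 fold change of 1.56 (SE 0.246, 95% interval 1.02 to 2.09, adjusted p = 0.0258 from limma). The pileup gave 1.85 (SE 0.391 from limma, the same for every named region in that fit). These values rest on control replicate 1 as the only control with a peak, and control replicate 3 called 1.53% of the regions that had a pileup under 20 tags in control replicate 1 and a peak in both LysMCre+ libraries.

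Thrb encodes the beta form of the thyroid hormone receptor in a gene of 377 kb, and its 17 regions included 11 in introns and 5 between genes. The upstream TSS region (chr14:17660380-17661415) was its strongest by mean enrichment, with 18.1 and 11.9 in the controls and 19.1 and 15.5 in the LysMCre+ libraries. The genotypes overlapped, and the log2 fold change was −0.14 (SE 0.215, adjusted p = 0.724 from limma). No region was called within promoter-TSS of the downstream start site.

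Within the long transcript, the intronic region at −27.4 kb from the downstream TSS (chr14:17954056-17954432) also rose in LysMCre+ Rxrab fl/fl in the fit without control replicate 3. The fold enrichments were 21.9 and 16.1 in LysMCre+ replicates 1 and 2 and 4.04 in control replicate 1, with no peak in control replicate 3. The pileups were 66 and 40 tags against 11, and the summits lay within 7 bp. Against that control the log2 fold change was 1.99 (SE 0.244, 95% interval 1.46 to 2.52, adjusted p = 0.0258 from limma). The pileup gave 2.09 (SE 0.391 from limma). Every named region had this same SE in that pileup fit, so it does not measure the spread of this region. The region had the largest difference among the 42 member regions of the fit on fold enrichment, and it too has 1 control value. A neighbouring intronic region at −14.2 kb had 7.41 in control replicate 1 and 12.4 and 15.1 in the LysMCre+ libraries (0.66, adjusted p = 0.174 from limma), and neither it nor an intronic region at 96.0 kb from the upstream TSS, with 5.39 against 13.6 and 8.18 (0.74, adjusted p = 0.107 from limma), passed.

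**Figure D4:**
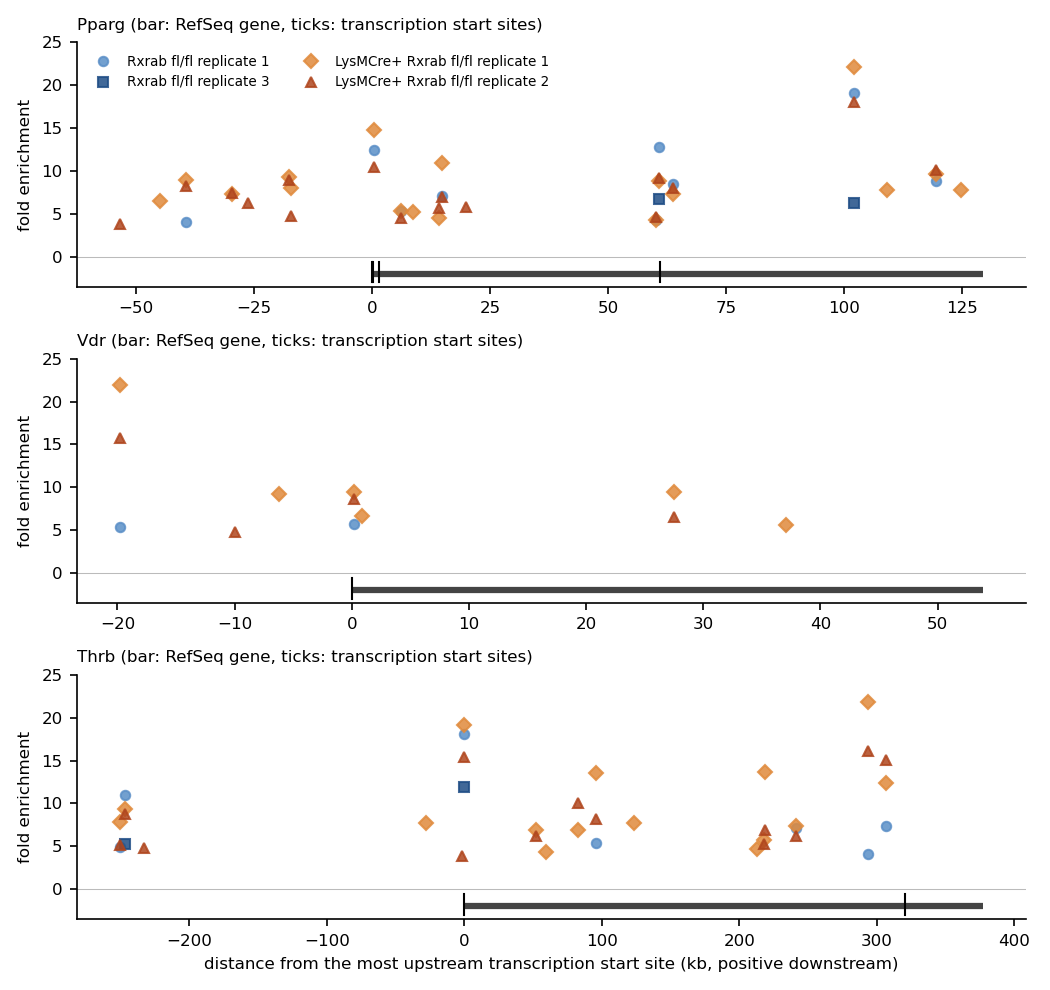
Fold enrichment of each called peak along Pparg, Vdr and Thrb against the distance from the most upstream TSS (kb), by library, with the gene as a bar and its TSSs as ticks. The tallest points at Vdr, at −19.7 kb, and in the downstream part of the Thrb gene are the LysMCre+ libraries (22.0 and 15.7, and 21.9 and 16.1), with control replicate 1 at 5.39 and 4.04.

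The NR4A genes, which encode rapidly induced orphan receptors, had their strong regions in all libraries. Nr4a1 (Nur77) had 8 regions, 4 of them called in every library, and the strongest lay between genes at −20.4 kb (chr15:101246141-101246774), above the promoter. It had fold enrichments of 21.1 and 15.2 in the controls and 17.9 and 15.9 in the LysMCre+ libraries, and pileups of 447 and 83 against 266 and 224 tags. Its log2 fold change was −0.45 (SE 0.227, adjusted p = 0.265 from limma). The TSS region (chr15:101266455-101267079) had 13.6 and 10.5 in the controls and 12.7 and 10.8 in the LysMCre+ libraries (−0.40, SE 0.234, adjusted p = 0.327 from limma). The region at −12.7 kb had 9.90 and 5.04 against 7.45 and 5.77 (−0.47, SE 0.205, adjusted p = 0.199 from limma). After division by the library medians, both LysMCre+ libraries lay below both controls at each of these 3 Nr4a1 regions, and the test called none of them.

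Nr4a2 (Nurr1) had 6 regions, with the strongest at its upstream TSS (chr2:57123479-57124453). The fold enrichments there were 20.7 and 11.0 in the controls and 19.8 and 15.1 in the LysMCre+ libraries (log2 fold change −0.17, SE 0.205, adjusted p = 0.645 from limma). A region at −1.74 kb from the downstream TSS, inside an intron of the longer transcript, had 9.42 and 6.25 in the controls and 7.58 and 4.72 in the LysMCre+ libraries. Its log2 fold change was −0.73 (SE 0.227, 95% interval −1.22 to −0.24, adjusted p = 0.104 from limma), the next lowest after the Nr1h2 promoter. The pileup gave the same −0.73 (limma, adjusted p = 0.0615). The TSS region and this one were ordered with both LysMCre+ libraries below both controls on the scaled values, without passing.

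The motif content of the member regions was close to that of all regions. No member region held a direct repeat of the hexamers with 1 to 5 bases between (DR1 to DR5, the paired sites that RXR heterodimers bind), in the summit window or in the whole region, where 0.609% and 1.19% of all regions did. A single hexamer lay in the summit window of 28 of 77 (36.4%), against 34.7% of all regions. The PU.1 pattern was in 19 (24.7% against 21.8%), AP-1 in 10 (13.0% against 12.7%), C/EBP in 10 (13.0% against 11.1%) and GATA in 8 (10.4% against 10.6%). The NR4A element was in 1, the Pparg region at −17.15 kb, against 0.960% of all regions. The median GC content of the windows was 52.2% in member regions and 51.7% in all regions. A match of letters is not a binding site, and these strict patterns miss diverged elements.

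Genes that work with these receptors were taken as lists. The 40 genes were other RXR partners, targets of LXR and PPAR, vitamin D and thyroid hormone genes and coregulators, with 309 regions, of which 69 (22.3%, against 22.8% of all regions) were called in the LysMCre+ pair alone and 0 in the control pair alone. Of 68 regions tested in all 4 libraries, 0 passed as higher and 0 as lower, with a median log2 fold change of −0.19. By list, the share called in the LysMCre+ pair alone was 21.4% for other partners (14 regions), 23.5% for LXR targets (85), 12.5% for PPAR targets (40), 25.0% for vitamin D genes (24), 13.6% for thyroid hormone genes (22) and 25.8% for coregulators (124). The medians of the tested regions were 0.13 over 1 region, −0.22 over 21, −0.19 over 15, 0.02 over 2, −0.23 over 5 and −0.20 over 24. On the pileup 3 of these regions passed as lower, where 4.98% of all regions did. Of the 3, 2 were at Pdk4, a PPAR target that limits glucose oxidation, and 1 at the coregulator gene Nrip1.

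Without control replicate 3, regions of the lists that passed as lower included the promoters of the LXR targets Apoe and Pltp. Apoe carries lipids out of macrophages, and Pltp is a phospholipid transfer protein. Apoe had 9.21 in control replicate 1 and 4.96 and 4.27 in the LysMCre+ libraries (log2 fold change −1.23). Control replicate 3 had no peak at the Apoe promoter, so that value rests on control replicate 1 alone. Pltp had 10.8 against 5.86 and 5.96 (−1.09), but control replicate 3, at 5.43, lay below both LysMCre+ libraries before scaling. The Pdk4 region at −13.7 kb had 17.4 in control replicate 1 and 11.2 and 6.25 in the LysMCre+ libraries (−1.28). Control replicate 3, at 7.97, lay between the LysMCre+ values before scaling. The Nrip1 region at −71.0 kb had 17.7 against 8.97 and 7.14 (−1.37), and control replicate 3, at 8.08, also lay between them before scaling. The fit is on values scaled to the library median. That median was 7.52 in control replicate 3, 14.5 in control replicate 1 and 15.1 and 12.02 in the LysMCre+ libraries. After division by these medians, both controls lay above both LysMCre+ libraries at the Pltp, Pdk4 and Nrip1 regions. On the pileup with all libraries, these Pdk4 and Nrip1 regions were at −2.05 and −2.16 (both adjusted p = 0.0183 from limma).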

How the data were processed

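Only the deposited peak lists were used, 1 per library, with 2 libraries per genotype. According to the methods, the authors mapped paired reads to mm10 (Bowtie2), kept properly paired, non-duplicate reads outside the mitochondria, X and Y, and ran MACS2 2.1.1 on every library by itself with a 200 bp extension and a q value of 0.05. The deposited values give each peak a fold enrichment, which is a ratio to local background, the −log10 of its p value and q value, and its summit position. Read counts per region are not analysed here, so the authors' edgeR test was not repeated, and a region with no peak has no value.

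The whole-number summit pileup was solved from fold enrichment and p value (pseudocount 1), which gave a value for 99.997% (rounded) or more of the peaks of each library. Regions were placed on 45756 RefSeq transcripts of GRCm38. Log2 fold enrichment entered limma 3.58.1 under R 4.3.3 (lmFit and eBayes, Benjamini-Hochberg over all regions tested), with Python 3.11.15 for the rest. Simulated data were drawn from the observed means, with the moderated SE of each region as its spread. On these, limma recovered 200 of 200 regions changed by 2 on the log2 scale and called 1 unchanged region, over 15199 regions. As 2 is well past the threshold of 1, this does not tell how often changes near 1 would be found. The members and lists were chosen with earlier results of these data known. The text names the TSS region and the strongest region of each member, any region past the threshold, the 3 largest and 3 smallest log2 fold changes, and list genes past the threshold. Other regions of the same genes were named after their values were seen. The calls of 1 list gene, among them those that passed as higher, are not reported here, and its regions remain in the list totals. The alternatives were a stricter q value of 0.01, equal peak numbers, summits only, other assignments, the pileup, quantile normalization, a mean-variance trend, regions called in part of the libraries, and leaving out each library.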

Additional observations from a re-analysis of the deposited data

How the results depend on the processing

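No paired analysis was made, because the labels do not say that libraries of the genotypes were matched. The number of member regions called in the LysMCre+ pair alone was 5 with equal peak numbers. With 1 library left out, the count took regions called in every remaining LysMCre+ library and in no remaining control, which is a looser criterion. It was then 13 to 35, highest without control replicate 1 (35, or 45.5% of members and 49.2% of all regions). Without LysMCre+ replicates 2 and 1 it was 28 (38.9% and 44.3%) and 20 (31.7% and 36.4%). The number in the control pair alone was 5 with equal peak numbers. Counted in the same looser way, it was 0 with each library left out. The difference in mean calls per library, 34.5, was 1.5 with equal peak numbers, 22.5 with gene body overlap alone and 23 to 46 with 1 library left out. The mean stayed higher in LysMCre+ Rxrab fl/fl throughout. With equal peak numbers, though, only LysMCre+ replicate 2, at 23, exceeded the controls, and LysMCre+ replicate 1 equalled them at 20.

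The count of member regions past the limma threshold, 0, was 2 on the pileup, 4 over regions called in at least 1 library of each genotype (43 tested, and 8.11% of all regions called, with the distal Vdr and Thrb regions, the Pparg region at −39.3 kb and the Thrb region at 96.0 kb), and 0 to 2 with 1 library left out, where the 1 without control replicate 1 was the Nr1h2 promoter. Combining the pileup with the wider set of regions gave 7 of 43 (12.3% of all regions), and with leaving out control replicate 3 gave 6 of 42 (13.1% of all regions), of which 4 were lower (with the Nr1h2 promoter, the downstream Pparg promoter and the Nr4a2 region at −1.74 kb among these), both chosen after seeing the data. Over all regions, the calls higher and lower numbered 6 and 7 at first, 379 and 757 on the pileup, 61 and 76 with a trend, 2750 and 137 over the wider set, 735 and 402 without control replicate 3 and 245 and 540 without control replicate 1. The median of −0.15 was −0.41 to −0.17 with 1 library left out, lowest without control replicate 1, and 0.14 for the pileup with the wider set. The cause of these shifts was not tested.

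Of 150 values of 18 named regions under alternatives, 129 kept their direction and side of the threshold, 6 newly passed and 15 changed sign, all 15 with an adjusted p of at least 0.343 from limma. The 18 do not include every region described above, and the downstream Pparg promoter is not among them. On the pileup the sign changed at the Thrb TSS (0.076), the Ppard TSS (0.29) and the intronic Nr1h2 region (−0.16), also over the wider set (0.076, 0.29 and −0.16). The upstream Pparg TSS was at 0.10 over the wider set, 0.50 there on the pileup and 0.092 on the pileup without control replicate 3. Leaving out control replicate 3 put the Nr1h3 region near Madd at −0.048 (range with 1 library left out −0.048 to 0.34) and the Pparg coding exon region at −0.17 (−0.36 on the pileup, range −0.36 to 0.82). The intronic Nr1h2 region was at −0.32 without control replicate 1, −0.15 without LysMCre+ replicate 2 and −0.16 on the pileup without control replicate 3 (range −0.32 to 0.69). The direct repeat count, 0, was also 0 over whole regions. Regions of low pileup seldom have a value in control replicate 3, so few of them could be tested in all libraries.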
